A study of Homo sapiens with 9 samples.

Results

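The 10 genes described here are ATF4, a transcription factor of the amino acid and endoplasmic reticulum stress response, and 9 genes tied to it: DDIT3, TRIB3, CHAC1, ASNS, PHGDH, PSAT1, PSPH, SHMT2 and SLC7A5. The set was chosen by name, with earlier results of these data known. All 10 were found among the 62666 genes of the deposited tables. They passed the filter on low counts, as did 17910 genes in all. Polyadenylated RNA was sequenced from 3 related human breast epithelial cell lines, with 3 libraries a line. MCF10A is a line of immortal, non-tumorigenic mammary epithelial cells, MCF10AT1 was derived from it with an activated HRAS oncogene, and MCF10Ca1a was derived from xenografts of the HRAS-carrying cells and forms malignant tumours. All were grown in DMEM/F12 with insulin at 10 µg/mL, L-glutamine at 2 mM, epidermal growth factor at 20 ng/mL, hydrocortisone at 500 ng/mL, cholera toxin at 100 ng/mL and 14 mM sodium bicarbonate. Horse serum was at 5% for MCF10A and MCF10Ca1a and at 2.5% for MCF10AT1, so serum and line cannot be told apart in the comparisons with MCF10AT1. Each line is a single derivative, and the labels do not say whether the replicates were separate cultures, so p-values measure the spread between these libraries, which may be technical.

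Cells that lack an amino acid, or whose endoplasmic reticulum holds unfolded protein, activate kinases that phosphorylate the translation factor eIF2. Most protein synthesis then slows, while the ATF4 messenger is translated more, so that ATF4 protein can change with little change in its RNA. ATF4 pairs with C/EBP family proteins on response elements of genes for amino acid synthesis, amino acid uptake, tRNA charging and stress signalling. RNA-seq measures the messengers of this pathway and not eIF2 phosphorylation or ATF4 protein.

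Libraries of MCF10A and MCF10AT1 held 62.9 to 69.5 M counts and those of MCF10Ca1a 32.9 to 35.2 M. MCF10A replicate 1 stood apart from the other MCF10A libraries: a chi-square per degree of freedom over genes was 31.2 and 72.7 against replicates 2 and 3, and 11.4 between those. MCF10AT1 replicate 3 differed less from its line, at 14.3 and 16.6 against replicates 1 and 2, with 3.53 between those, and the pairs of MCF10Ca1a were at 2.39 to 4.15. Mammary epithelial markers fit the label, with 9, 9 and 10 of 10 over 1 TPM (a level scaled by transcript length and by library) in MCF10A, MCF10AT1 and MCF10Ca1a and summed levels of 3991 to 5774 TPM over all libraries. KRT19 was the exception in MCF10A and MCF10AT1, at 0.0566 and 0.256 TPM. Summed fibroblast, endothelial and haematopoietic markers stayed between 0.343 and 31.5 TPM, led by DCN in MCF10AT1 (27.9 TPM), PECAM1 in MCF10Ca1a (18.7 TPM) and CD14 in MCF10A (8.62 TPM), and their part in the results was not tested. CD3E, of T cells, was at 0 counts in every library, and CDH5, of endothelium, in those of MCF10A and MCF10Ca1a. In bulk RNA, fewer cells with a messenger and less of it in each cell cannot be told apart.

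The letters to which ATF4 binds with a C/EBP partner were looked up in RefSeq promoter windows on GRCh38.p14, each with 250 bases before and 50 after a transcript start. Windows matched 8 of the 10 genes by symbol; PSPH and SHMT2 had none. The core TGATGNAA, read on both strands, was found in 3.62% of all 35116 windows and in 1217 of 27305 genes with a window (4.46%). Among the 8 genes, which had 13 windows, it was found in ASNS and CHAC1. Their sites are shown because these were among the members that rose furthest, together with sites of 4 genes from the pathway lists. The 8 letters of the core are in capitals, each sequence is written so that the core reads forward, and the coordinates are those of the printed bases.
ASNS: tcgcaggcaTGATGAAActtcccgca
CHAC1: tggcaggagTGATGCAAcggcagggg
ATF3: aggtcaggaTGATGGAAggctgtcat
CEBPG: cgcggcgtcTGATGCAAcctgccggc
SLC1A5: ggaagtggcTGATGCAAgctgtccag
AARS1: taacttggcTGATGCAActgcgagaa
The ASNS site lies at chr7:97872460-97872485 on the minus strand, that of the gene, with the core starting 68 bases before the RefSeq start. The CHAC1 site lies at chr15:40953253-40953278 and reads on the minus strand, opposite to the gene, with the core starting 209 bases before the start. In GENCODE 29 these cores fall in annotated exons of ASNS and CHAC1. The ATF3 and CEBPG sites lie on the plus strand of their genes at chr1:212565207-212565232 and chr19:33374062-33374087. The SLC1A5 site lies on the minus strand at chr19:46784895-46784920. The AARS1 site reads on the plus strand at chr16:70289677-70289702, opposite to AARS1 and in an annotated exon of its neighbour DDX19B. A match is a run of letters, and binding was not measured.

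The members did not move as a block along the 3 lines. In MCF10AT1 compared with MCF10A, 8 of the 10 rose and SLC7A5 fell, mostly by modest amounts. There, 29.8% of all genes tested rose and 31.8% fell. In MCF10Ca1a compared with MCF10A, the stress genes DDIT3 and CHAC1 rose 12.4-fold and 13.7-fold, ASNS, PHGDH and TRIB3 rose 5.41-fold, 3.11-fold and 3.00-fold, and ATF4 itself, PSAT1, PSPH and SLC7A5 fell. Those 5 rises and 4 falls stood beside 39.0% and 41.9% of all genes. SHMT2 was not called in any comparison. Calls are from edgeR's quasi-likelihood test at a Benjamini-Hochberg adjusted p of 0.05 over all 17910 genes, and the lines differed widely, so a call alone sets no gene apart. Of all genes tested, 61.6% were called in MCF10AT1 against MCF10A beside 9 of 10 members, 78.4% in MCF10Ca1a against MCF10AT1 beside 8 of 10, and 80.9% in MCF10Ca1a against MCF10A beside 9 of 10. A rise of at least 2-fold was called for 2, 4 and 5 members in these comparisons, where 9.36%, 18.2% and 21.2% of all genes had one. A fall of at least 2-fold was called for 0, 2 and 2 members, beside 8.64%, 19.5% and 21.7% of all genes. The ranges of the lines in CPM, counts scaled to library size, did not overlap for 8, 8 and 9 members, beside 65.4%, 81.9% and 81.5% of all genes. Without MCF10A replicate 1 the members called numbered 8, 8 and 9, and the one lost was PSPH in MCF10AT1 against MCF10A. Without MCF10AT1 replicate 3 they numbered 9, 8 and 9. In MCF10AT1 against MCF10A they numbered 8, 7 of them higher, without MCF10A replicate 2 or MCF10AT1 replicate 1 or 2. With limma on log2(TPM + 1) values they numbered 7 there, 6 of them higher.

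**Figure D1:**
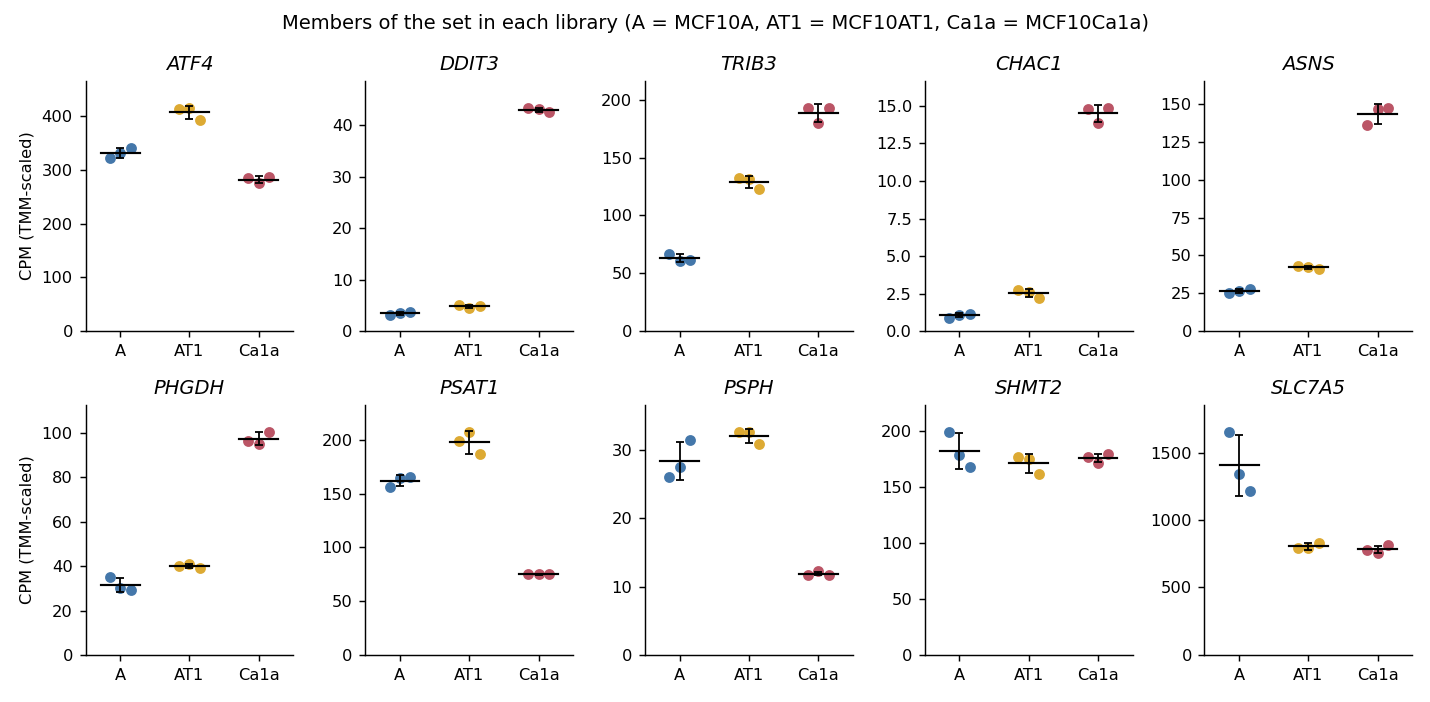
Level of each of the 10 genes in each library, in CPM (vertical axis, from 0), for MCF10A (A), MCF10AT1 (AT1) and MCF10Ca1a (Ca1a); points are libraries, bars the mean and SD of 3. DDIT3, CHAC1, ASNS and PHGDH are highest in MCF10Ca1a, where PSAT1 and PSPH are lowest, and SLC7A5 is highest in MCF10A.

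ATF4 (ENSG00000128272, chr22:39519695-39522685, plus strand; positions of genes are from GENCODE 29 on GRCh38) was abundant, and its largest difference between lines was 1.44-fold. Its level was 322, 331 and 341 CPM in MCF10A, while MCF10AT1 had 413, 416 and 393 and MCF10Ca1a 285, 276 and 286. No library of a line overlapped with those of another, and MCF10AT1 was the highest. From MCF10A to MCF10AT1 the log2 fold change was 0.30 (SE 0.05, adjusted p 2.09e-04), and from there to MCF10Ca1a it was -0.53 (SE 0.05, adjusted p 4.04e-07). MCF10Ca1a stood at -0.23 (SE 0.05, adjusted p 9.04e-04) relative to MCF10A. The last of these was not called on log2(TPM + 1) values with limma (-0.10, adjusted p 0.0813), a scale on which the median of all genes in that comparison was 0.06. The ATF4 messenger was thus slightly lower in the line with the highest DDIT3, CHAC1 and ASNS levels than in either other line on the count scale. A root mean square difference of centred log2 CPM over the 9 libraries put GDI2, BZW2 and ENOPH1 nearest to ATF4 among the 15854 tested genes with a symbol, at 0.0224, 0.0267 and 0.0323. The nearest other member was SHMT2, at 0.250.

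DDIT3 (chr12:57516588-57521737, minus strand) encodes CHOP, a C/EBP family factor induced in prolonged endoplasmic reticulum stress. It was at 3.18, 3.51 and 3.68 CPM in MCF10A, while MCF10AT1 had 4.99, 4.51 and 4.90 and MCF10Ca1a 43.4, 43.1 and 42.5. The MCF10Ca1a libraries lay far above the other 6, among which the lines did not overlap either. From MCF10A to MCF10AT1 it rose by a log2 fold change of 0.47 (SE 0.07, adjusted p 8.97e-05), from there to MCF10Ca1a by 3.16 (SE 0.07, adjusted p 9.81e-14), and 4.42% of all genes had a larger rise in MCF10Ca1a against MCF10A. The 3′ end of DDIT3 overlaps that of MARS1, the methionyl-tRNA synthetase gene on the opposite strand, over 982 bases (chr12:57516588-57517569). The library kit keeps strand, but the sources used here do not state whether the counting used it. MARS1 was at 138, 161 and 141 CPM on average in MCF10A, MCF10AT1 and MCF10Ca1a. It rose in MCF10AT1 against MCF10A (log2 fold change 0.22, adjusted p 0.0115), as DDIT3 did, fell in MCF10Ca1a against MCF10AT1 (-0.19, adjusted p 0.01999) and was not called in MCF10Ca1a against MCF10A (0.03, adjusted p 0.686).

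TRIB3 (chr20:362835-397559, plus strand), a pseudokinase that restrains ATF4 and AKT signalling, stepped up from line to line. Its values were 67.0, 60.7 and 61.1 CPM in MCF10A, while MCF10AT1 had 132.5, 131.5 and 122.5 and MCF10Ca1a 192.9, 180.0 and 193.0, with no overlap between lines. The log2 fold change was 1.03 (SE 0.06, adjusted p 3.19e-09) in the first comparison, 0.55 (SE 0.06, adjusted p 7.65e-07) in MCF10Ca1a against MCF10AT1 and 1.58 (SE 0.06, adjusted p 1.09e-11) in MCF10Ca1a against MCF10A. It was one of the 2 members to reach a 2-fold rise already in MCF10AT1.

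CHAC1 (chr15:40952962-40956519, plus strand), an enzyme that degrades glutathione, was the other. It was near the bottom of the range in MCF10A, at 0.904, 1.10 and 1.16 CPM, or 58 to 81 counts a library. It reached 2.74, 2.60 and 2.24 CPM in MCF10AT1 and 14.8, 13.9 and 14.9 in MCF10Ca1a, and again no lines overlapped. From MCF10A to MCF10AT1 the log2 fold change was 1.26 (SE 0.12, adjusted p 9.86e-07), and from there to MCF10Ca1a 2.52 (SE 0.10, adjusted p 4.94e-11). From first to last it was 3.78 (SE 0.12, adjusted p 1.64e-12). Of all genes, 4.12% had a larger rise from MCF10A to MCF10Ca1a. CHAC1 and DDIT3 were each other's nearest member in centred log2 CPM over the 9 libraries, at a root mean square difference of 0.349. Within a library, CHAC1 TPM was 0.00274 to 0.00331 of ATF4 TPM in MCF10A, 0.00555 to 0.00643 in MCF10AT1 and 0.0488 to 0.04998 in MCF10Ca1a. DDIT3 was 0.0146 to 0.0157 of ATF4 in MCF10A, 0.0159 to 0.0184 in MCF10AT1 and 0.216 to 0.229 in MCF10Ca1a. These ratios do not depend on the scaling between libraries.

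ASNS (chr7:97852118-97872542, minus strand), which makes asparagine from aspartate with glutamine as nitrogen donor, is a classic ATF4 target. It was at 25.4, 26.5 and 27.6 CPM in MCF10A, while MCF10AT1 had 42.9, 42.1 and 41.4 and MCF10Ca1a 136, 147 and 147, with no overlap. The log2 fold change was 0.67 (SE 0.05, adjusted p 1.11e-07), 1.77 (SE 0.05, adjusted p 2.00e-12) and 2.44 (SE 0.05, adjusted p 7.86e-14) in MCF10AT1 against MCF10A, MCF10Ca1a against MCF10AT1 and MCF10Ca1a against MCF10A. Its TPM was 0.0726 to 0.0790 of that of ATF4 in MCF10A, 0.0998 to 0.108 in MCF10AT1 and 0.459 to 0.492 in MCF10Ca1a.

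The serine pathway split between its first enzyme and its later ones. PHGDH (chr1:119648411-119744226, plus strand) draws carbon from glycolysis, PSAT1 (chr9:78297143-78330093, plus strand) adds the amino group and PSPH (chr7:56011051-56051604, minus strand) releases serine. PHGDH was at 34.9, 30.1 and 29.2 CPM in MCF10A, while MCF10AT1 had 40.1, 41.2 and 39.4 and MCF10Ca1a 96.6, 95.2 and 100.7. It rose by a log2 fold change of 0.36 (SE 0.06, adjusted p 2.69e-04) and then 1.28 (SE 0.06, adjusted p 3.30e-10), and by 1.64 (SE 0.06, adjusted p 2.06e-11) overall. The first of these was not called on log2(TPM + 1) values with limma (0.20, adjusted p 0.143).

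PSAT1 went the other way in the tumour-forming line. It was at 156, 164 and 165 CPM in MCF10A, while MCF10AT1 had 198, 208 and 187 and MCF10Ca1a 74.8, 75.0 and 75.6. It rose in MCF10AT1 against MCF10A (log2 fold change 0.29, SE 0.05, adjusted p 3.25e-04) and fell in MCF10Ca1a, by 1.39 (SE 0.05, adjusted p 2.56e-11) against MCF10AT1 and 1.11 (SE 0.05, adjusted p 1.81e-10) against MCF10A. PSPH followed it closely, at 26.2, 27.5 and 31.5 CPM in MCF10A, while MCF10AT1 had 32.7, 32.7 and 30.9 and MCF10Ca1a 11.8, 12.2 and 11.8. The MCF10A and MCF10AT1 ranges of PSPH overlapped, and MCF10Ca1a was below both. In MCF10Ca1a, PSPH fell by 1.43 on the log2 scale (SE 0.07, adjusted p 3.63e-10) relative to MCF10AT1 and by 1.25 (SE 0.07, adjusted p 1.14e-09) relative to MCF10A. Its call in MCF10AT1 against MCF10A (log2 fold change 0.18, SE 0.06, adjusted p 0.0293) was lost without MCF10A replicate 1 (adjusted p 0.0821) or replicate 2 (adjusted p 0.113), without MCF10AT1 replicate 1 (adjusted p 0.0870) or replicate 2 (adjusted p 0.0880), and on TPM. PSAT1 and PSPH were each other's nearest member, at a root mean square difference of 0.0821, the smallest between any of the 10.

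The order of the serine enzymes by length-scaled level changed with this. PSAT1 TPM was 5.28 to 7.15 times that of PHGDH in the MCF10A libraries, 5.64 to 6.47 times in MCF10AT1 and 0.871 to 0.890 times in MCF10Ca1a. The ratio of PSPH to PHGDH was 0.977 to 1.51 in MCF10A, 1.003 to 1.16 in MCF10AT1 and 0.136 to 0.148 in MCF10Ca1a. The MCF10Ca1a libraries lay below the other 6 in both ratios, and MCF10A and MCF10AT1 overlapped.

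**Figure D2:**
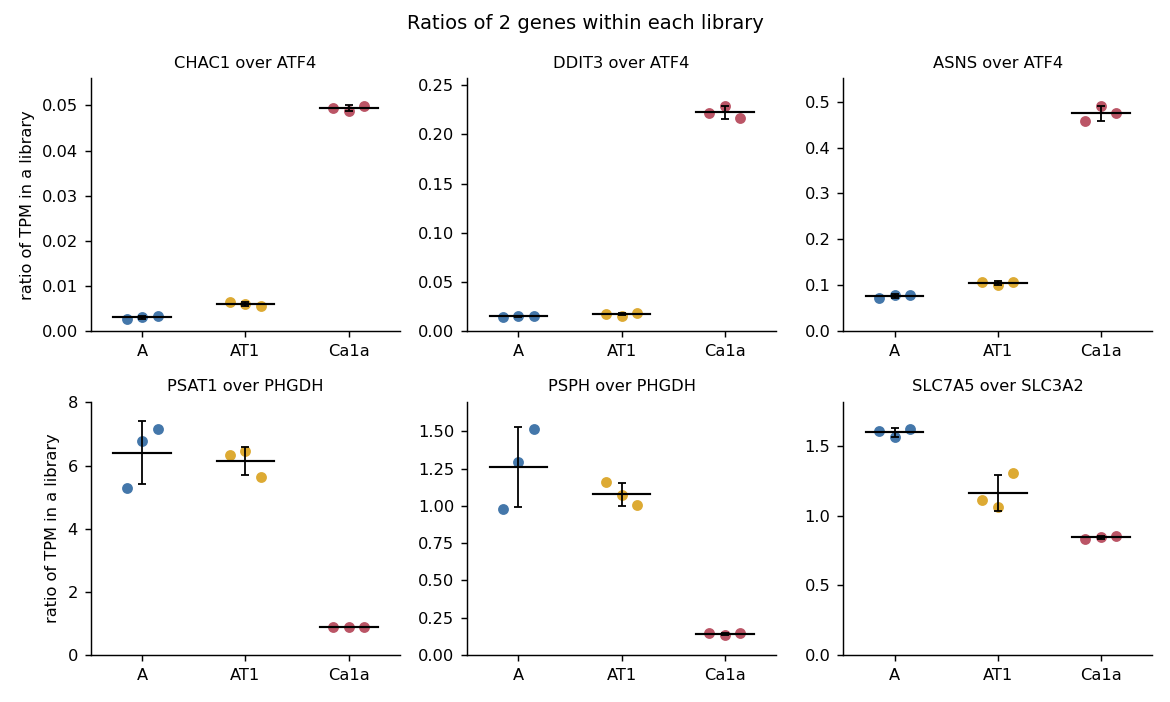
Ratio of the TPM of one gene to that of another within each library (vertical axes, from 0), by line; points are libraries, bars the mean and SD of 3. CHAC1, DDIT3 and ASNS relative to ATF4 are highest in MCF10Ca1a, where PSAT1 and PSPH relative to PHGDH are lowest.

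SHMT2 (chr12:57229327-57234935, plus strand), the mitochondrial enzyme that splits serine into glycine and a one-carbon unit, held its level. It was at 199.9, 179 and 168 CPM in MCF10A, while MCF10AT1 had 177, 176 and 162 and MCF10Ca1a 177, 172 and 179.6, and the ranges of all 3 lines overlapped. The log2 fold change was -0.09, 0.04 and -0.05 in MCF10AT1 against MCF10A, MCF10Ca1a against MCF10AT1 and MCF10Ca1a against MCF10A, with 95% intervals of -0.23 to 0.05, -0.10 to 0.18 and -0.19 to 0.09. On log2(TPM + 1) values the second of these was 0.34 and called by limma (adjusted p 0.00929), on a scale where the median of all genes was 0.13.

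SLC7A5 (chr16:87830023-87869488, minus strand), the LAT1 exchanger that takes up leucine and other large neutral amino acids, was the most abundant member in MCF10A and the only one to fall in MCF10AT1. Its values were 1657, 1341 and 1217 CPM in MCF10A, while MCF10AT1 had 792, 790.2 and 833 and MCF10Ca1a 777, 757 and 812. MCF10A lay above both other lines in every library, with replicate 1 the highest, and the other lines overlapped. Relative to MCF10A the log2 fold change was -0.80 (SE 0.09, adjusted p 4.43e-06) for MCF10AT1 and -0.85 (SE 0.09, adjusted p 1.10e-06) for MCF10Ca1a. Without MCF10A replicate 1 these were -0.67 and -0.72 and both still called. Between MCF10Ca1a and MCF10AT1 it was -0.04 (95% interval -0.24 to 0.15, not called), and 0.24 on log2(TPM + 1) values, also not called. The heavy chain SLC3A2, which carries LAT1 to the membrane, was at 337, 256 and 342 CPM on average, so that the TPM ratio of SLC7A5 to SLC3A2 was 1.57 to 1.62 in MCF10A, 1.07 to 1.31 in MCF10AT1 and 0.831 to 0.856 in MCF10Ca1a.

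**Figure D3:**
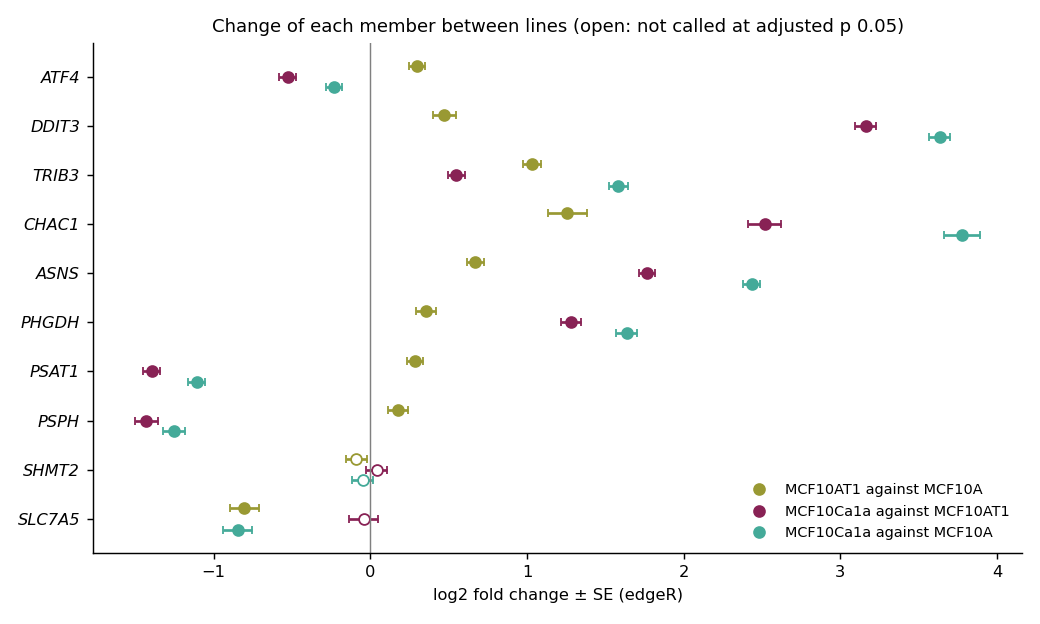
Log2 fold change (horizontal axis) with its SE from edgeR for each of the 10 genes in the 3 comparisons; filled points were called at an adjusted p of 0.05 and open points were not. DDIT3 and CHAC1 reach 3.63 and 3.78 in MCF10Ca1a against MCF10A, while PSAT1 and PSPH are near -1.11 and -1.25.

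On the length-scaled TPM, the order of the 10 genes was SLC7A5, ATF4, PSAT1, SHMT2, TRIB3, PSPH, ASNS, PHGDH, DDIT3 and CHAC1 in MCF10A, from 418 down to 0.906 TPM on average. PSAT1 and SHMT2, and ASNS and PHGDH, overlapped over the libraries there. In MCF10AT1 ATF4 (328 TPM) was above SLC7A5 (213 TPM), with no neighbours overlapping. In MCF10Ca1a the order was ATF4 (274 TPM), SLC7A5 (252 TPM), ASNS (130.2 TPM), SHMT2, TRIB3, PHGDH, PSAT1, DDIT3, CHAC1 and PSPH (11.5 TPM), and SHMT2 and TRIB3 overlapped. ASNS moved from below PSPH in MCF10A to above SHMT2 in MCF10Ca1a, and PSPH to the last place.

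Genes around the members were counted in lists of the pathway, which were also chosen with earlier results of these data known. Beside the counts stand the shares of all genes called higher and lower, 29.8% and 31.8% in MCF10AT1 against MCF10A, 38.0% and 40.3% in MCF10Ca1a against MCF10AT1 and 39.0% and 41.9% in MCF10Ca1a against MCF10A. On log2(TPM + 1) values, 36.2%, 61.6% and 55.0% of the genes called were higher, where the count fit had 48.4%, 48.5% and 48.2%, so list counts are given on that scale too where they turn.

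The regulators of eIF2 rose in part. Of 14 eIF2 kinases, phosphatase subunits and helpers, 4 rose and 6 fell in MCF10AT1 against MCF10A, and 9 rose and 4 fell in MCF10Ca1a relative to MCF10AT1 and relative to MCF10A (10 and 2 on TPM in the last). PPP1R15A, the stress-induced phosphatase subunit GADD34, went from 20.6 ± 0.247 (SD, n = 3) CPM in MCF10A to 43.3 ± 0.189 in MCF10AT1 and 236 ± 4.56 in MCF10Ca1a, a log2 fold change of 3.51 (SE 0.05, adjusted p 1.67e-15) from first to last. EIF2AK3, the kinase PERK of the endoplasmic reticulum, was at 20.2, 15.7 and 55.4 CPM on average, log2 fold changes of -0.36 and then 1.82. EIF2AK4, the kinase GCN2 that senses uncharged tRNA, was not called in the first comparison and fell by 0.15 and 0.23 in MCF10Ca1a against MCF10AT1 and MCF10A. PPP1R15B, the constitutive phosphatase subunit, fell most in MCF10AT1 (-0.89) and PPP1CC, a catalytic subunit, fell most in MCF10Ca1a (-0.86 and -0.76).

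Of 12 stress transcription factors and ATF4 partners, 3 rose and 2 fell in MCF10AT1 against MCF10A (6 and 2 without MCF10A replicate 1, 3 and 3 on TPM), and 4 rose and 8 fell in each comparison of MCF10Ca1a. ATF3, induced by many stresses, climbed from 2.45 ± 0.236 to 15.3 ± 0.344 and 74.7 ± 1.60 CPM (SD, n = 3), with log2 fold changes of 2.63 and 2.29. CEBPB, which pairs with ATF4, rose by 0.42 in MCF10Ca1a against MCF10A. CEBPG, another partner, fell by 0.66. NUPR1, a small chromatin factor of the stress response, was at 14.6 CPM in MCF10A and MCF10AT1 and at 1.76 in MCF10Ca1a, where it fell by 3.05 on the log2 scale against either. ATF2 had the largest fall in MCF10AT1 against MCF10A, at -0.67.

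The 15 stress effectors and growth brakes rose more often than they fell in each comparison. In MCF10AT1 against MCF10A 9 rose and 3 fell, in MCF10Ca1a against MCF10AT1 12 rose and 1 fell, and in MCF10Ca1a against MCF10A 13 rose and none fell, with a median log2 fold change of 1.34 where that of all genes was -0.05. DDIT4, a brake on the growth kinase mTORC1, went from 461 to 1271 and 1999 CPM on average. GADD45A, a growth arrest gene, rose by 2.57 in MCF10Ca1a against MCF10A. SESN2, a leucine sensor, fell by 0.24 in MCF10AT1 and rose by 1.34 in MCF10Ca1a against MCF10A. VLDLR, a lipoprotein receptor, had the only fall in MCF10Ca1a against MCF10AT1 (-1.36). DEPP1 led the rises in MCF10AT1 (1.87), and the pro-apoptotic gene BCL2L11 the falls (-0.68). FGF21, a secreted stress hormone, had 0 counts in the 6 libraries of MCF10A and MCF10AT1 and 12 to 20 in those of MCF10Ca1a, at least 10.0-fold higher than MCF10A at a floor of 3 counts a library. The median of the list was 1.34 with FGF21 at that bound, which lies above it, and 1.19 without FGF21.

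**Figure D4:**
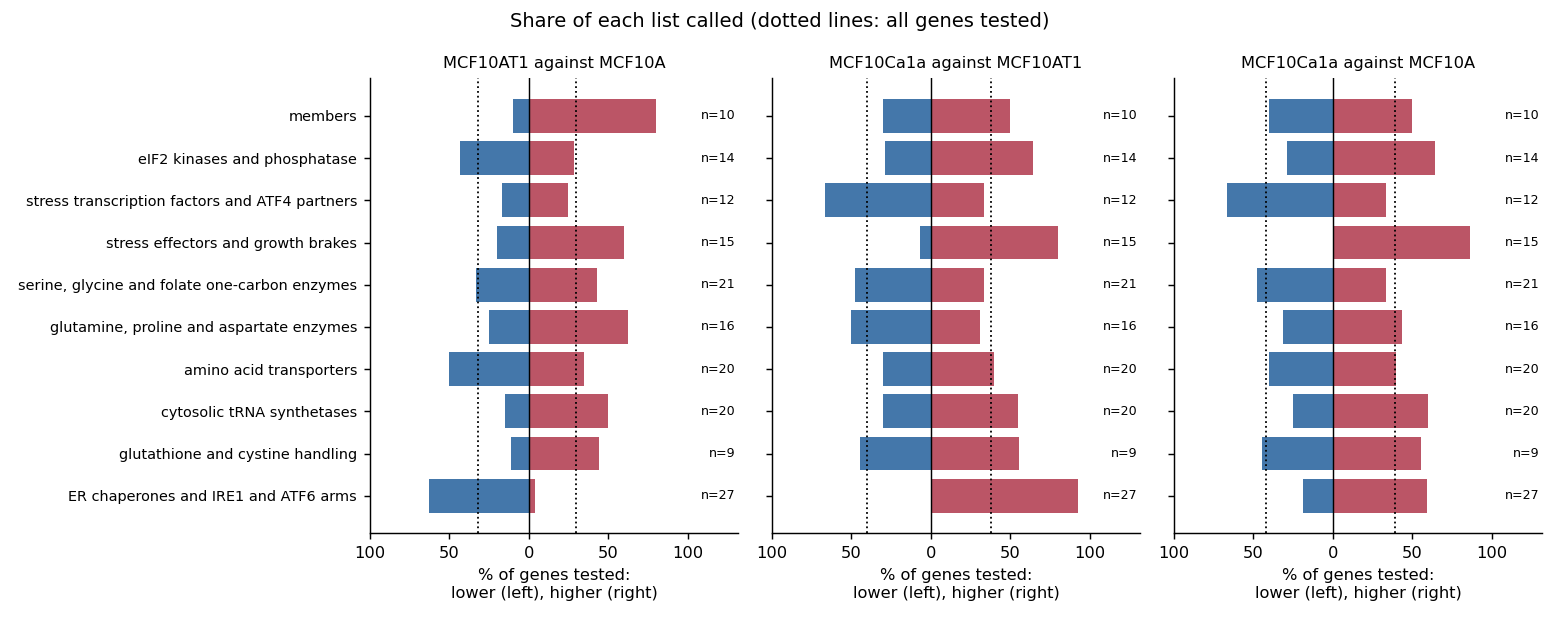
Share of the genes tested in each list that was called higher (right) or lower (left) in each comparison, by edgeR at an adjusted p of 0.05; n is the number tested and dotted lines mark the shares of all genes. The stress effectors reach 86.7% higher in MCF10Ca1a against MCF10A, and the endoplasmic reticulum list goes from 63.0% lower in MCF10AT1 to 92.6% higher in MCF10Ca1a against MCF10AT1.

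The one-carbon list, next to SHMT2, did not rise with PHGDH. Of 21 serine, glycine and folate enzymes, 9 rose and 7 fell in MCF10AT1 against MCF10A (5 and 7 on TPM), and 7 rose and 10 fell in both comparisons of MCF10Ca1a (8 and 7, and 9 and 10, on TPM). ALDH1L2, the mitochondrial enzyme that burns formyl folate, went from 97.0 ± 8.09 CPM in MCF10A to 18.2 ± 0.697 in MCF10AT1 and 0.125 ± 0.0354 in MCF10Ca1a (SD, n = 3), where it had 3 to 5 counts a library. MTHFD2, the mitochondrial folate dehydrogenase known as an ATF4 target, rose by 0.39 and 0.43 from line to line, from 199.99 to 263 and 354 CPM. GLDC, of the glycine cleavage system, had the largest fall in MCF10AT1 (-3.42), and its partner GCSH the largest rise (0.84).

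Glutamine, proline and aspartate enzymes counted 10 rises and 4 falls of 16 in MCF10AT1 against MCF10A (5 and 4 on TPM), 5 and 8 in MCF10Ca1a against MCF10AT1 (7 and 5 on TPM) and 7 and 5 in MCF10Ca1a against MCF10A. PYCR1, of proline synthesis in mitochondria, led the rises in MCF10Ca1a, from 16.7 CPM in MCF10A to 24.9 in MCF10AT1 and 78.4 in MCF10Ca1a. GLUD1, glutamate dehydrogenase, rose most in MCF10AT1 (0.91). PRODH, of proline breakdown, fell most in MCF10Ca1a but was at 0.843 CPM or less in every line on average.

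Transporters other than SLC7A5 went both ways: of 20, 7 rose and 10 fell in MCF10AT1 against MCF10A (5 and 12 on TPM), 8 rose and 6 fell in MCF10Ca1a against MCF10AT1 (13 and 5 on TPM), and 8 rose and 8 fell in MCF10Ca1a against MCF10A (10 and 6 on TPM). SLC6A14, a concentrative carrier of neutral and basic amino acids, was at 0.354, 13.6 and 87.8 CPM on average in MCF10A, MCF10AT1 and MCF10Ca1a, log2 fold changes of 5.26 and 2.69. SLC7A2, a carrier of arginine and lysine, ran the other way, at 57.7, 9.69 and 0.409 CPM. SLC7A11, the cystine importer, fell by 0.21 in MCF10AT1 and rose by 1.40 in MCF10Ca1a against MCF10AT1, from 43.4 to 37.4 and 98.8 CPM. SLC43A1 had the largest fall in MCF10AT1, from 0.823 to 0.0305 CPM, the latter from 1 to 4 counts a library.

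Of 20 cytosolic tRNA synthetases, 10 rose and 3 fell in MCF10AT1 against MCF10A (4 and 5 on TPM), 11 and 6 in MCF10Ca1a against MCF10AT1 (14 and 4 on TPM) and 12 and 5 in MCF10Ca1a against MCF10A (15 and 3 on TPM). KARS1, for lysine, rose most in MCF10Ca1a against MCF10A (1.37) and AARS1, for alanine, most against MCF10AT1 (1.22). WARS1, for tryptophan, fell most in both (-1.18 and -1.65). IARS1, for isoleucine, rose most (0.60) and EPRS1, for glutamate and proline, fell most (-0.84) in MCF10AT1 against MCF10A. Of 9 genes of glutathione and cystine handling, 4 rose and 1 fell in MCF10AT1 against MCF10A, and 5 rose and 4 fell in each comparison of MCF10Ca1a. GPX4, which removes lipid peroxides, rose most in MCF10AT1 (0.64), and CHAC2, the relative of CHAC1, fell most in MCF10Ca1a (-1.45 against MCF10AT1 and -1.34 against MCF10A).

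The messengers of the other arms of endoplasmic reticulum stress changed direction between the lines, and the activity of these arms was not measured. Of 27 chaperones and genes of the IRE1 and ATF6 arms, 1 rose and 17 fell in MCF10AT1 against MCF10A, 25 rose and none fell in MCF10Ca1a against MCF10AT1, and 16 rose and 5 fell in MCF10Ca1a against MCF10A. The median log2 fold changes were -0.32, 0.73 and 0.40, and on TPM the counts were 1 and 19, 26 and 0, and 19 and 3. HERPUD1, of protein degradation at the reticulum, had the largest rise in MCF10Ca1a, at 1.90 against MCF10AT1. DNAJB9, a cochaperone, was the only gene of the list to rise in MCF10AT1 (0.60), and ERO1B, an oxidase of the reticulum, fell most there (-1.89). ERN1, the sensor IRE1, had a rise of 1.78 in MCF10Ca1a against MCF10A, and CALR, calreticulin, the largest fall (-0.91).

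Promoters of the endoplasmic reticulum list held a second motif. The endoplasmic reticulum stress response element, searched as CCAAT and CCACG set apart by 9 bases, was found on either strand in 0.0769% of all windows, in 25 of the 27305 genes with a window (0.0916%) and in 8 of the 25 genes of that list with one. None of the 8 members with a window held it. Sites of 3 of these genes are shown with the element in capitals: HSPA5, the main chaperone of the reticulum, XBP1, the factor of the IRE1 arm, and CALR, which fell against MCF10A.
HSPA5: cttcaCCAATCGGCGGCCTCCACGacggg
XBP1: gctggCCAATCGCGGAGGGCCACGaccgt
CALR: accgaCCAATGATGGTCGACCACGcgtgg
They lie on the minus strand at chr9:125241386-125241414, chr22:28800598-28800626 and chr19:12938379-12938407. HSPA5 was at 757, 750.0 and 1918 CPM on average in MCF10A, MCF10AT1 and MCF10Ca1a, XBP1 at 81.2, 64.6 and 116 CPM and CALR at 915, 399 and 488 CPM. All 8 genes rose in MCF10Ca1a against MCF10AT1, beside 25 of the 27 genes tested in the list. In MCF10Ca1a against MCF10A 4 rose and 2 fell, beside 16 and 5 of the 27. In MCF10AT1 against MCF10A 5 fell, beside 17 of the 27. These counts are close to those of the list, and a part of the element in them was not tested. The ATF4 core was matched in 22 genes tested from the pathway lists, beside 102 list genes with a window and no match. In MCF10AT1 against MCF10A, 8 of the 22 rose and 6 fell, beside 38 and 34 of the 102. In MCF10Ca1a against MCF10AT1, 11 rose and 9 fell, beside 60 and 24. In MCF10Ca1a against MCF10A, 11 rose and 6 fell, beside 56 and 30. Over the whole table, 346 genes tested had a match, of which 37.0%, 45.1% and 46.0% rose and 31.2%, 40.2% and 38.4% fell in these comparisons. Of the 11991 genes tested that had a window, 31.7%, 39.6% and 39.9% rose and 35.1%, 43.3% and 44.9% fell. The letters were most frequent in windows of tRNA synthetases (7 of 16 genes), stress transcription factors (4 of 9) and transporters (6 of 19).

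Transcript shares were tested for the 8 members with at least 2 transcripts over the limits, by limma on the log2 ratio between each transcript and the other transcripts of the gene. Of these, 1, 5 and 5 were called in MCF10AT1 against MCF10A, MCF10Ca1a against MCF10AT1 and MCF10Ca1a against MCF10A, where 10.6%, 40.8% and 47.9% of 10065 genes were. PSAT1 was the one called in all 3. Its shorter transcript PSAT1-201 lacks exon 8 of PSAT1-202, 138 bases at chr9:78328051-78328188, and also ends earlier in the last exon, at 78329454 where PSAT1-202 ends at 78330093. It made up 3.08%, 2.67% and 3.08% of the PSAT1 total in the MCF10A libraries, 5.07%, 5.51% and 5.27% in MCF10AT1 and 10.7%, 8.90% and 11.8% in MCF10Ca1a. The lines did not overlap, with adjusted p of 0.0146, 0.00170 and 7.82e-05 in the 3 comparisons. The first was lost without MCF10AT1 replicate 2 (adjusted p 0.0522).

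ASNS-213, a transcript annotated as a target of nonsense-mediated decay, made up 6.51%, 7.38% and 6.12% of the ASNS total in the MCF10A libraries, 4.91%, 4.01% and 7.16% in MCF10AT1 and 22.3%, 19.9% and 19.5% in MCF10Ca1a. MCF10Ca1a lay above both other lines (adjusted p for ASNS 0.00149 and 0.00274), which overlapped. DDIT3-205 held 33.4% to 36.6% of DDIT3 counts in MCF10Ca1a, beside 15.1% to 26.1% in MCF10A and 16.6% to 21.3% in MCF10AT1 (adjusted p 0.0277 against MCF10AT1 and 0.0424 against MCF10A). The calls of DDIT3, PSPH and SHMT2 were lost in 3 to 8 of the 9 fits that left out a library. Through these shifts ATF4 kept 1 main transcript, at 85.4%, 85.0% and 85.8% of its counts on average, with no call. The shares rest on estimated counts, in which reads common to several transcripts are divided by a model.

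**Figure D5:**
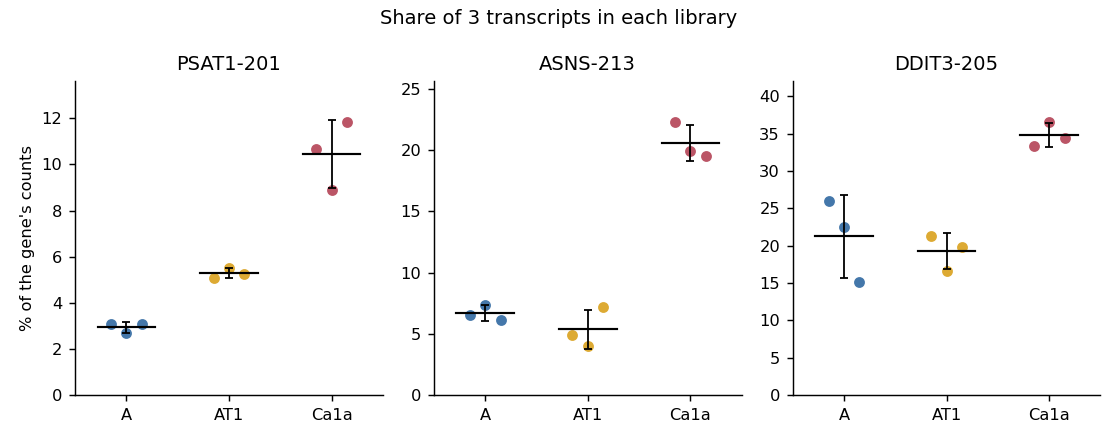
Share of the counts of a gene (vertical axis, percent, from 0) that belonged to PSAT1-201, ASNS-213 and DDIT3-205 in each library, by line; points are libraries, bars the mean and SD of 3. PSAT1-201 steps up from 2.94% to 5.28% and 10.5% on average, and ASNS-213 is at 20.6% in MCF10Ca1a.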

How the data were processed

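RNA-seq of 9 libraries, 3 of each line, was analysed; groups and replicate numbers came from the titles. The authors deposited estimated counts per gene, length-scaled and scaled versions of them, estimated counts per transcript, and TPM. Salmon and hg38 are named in the submitters' processing notes, with no version. The annotation, and whether counting used strand, are not given in the sources used here. Libraries were stranded, per the labels. Deposited estimated counts were rounded; genes were kept by filterByExpr (minimum count 10, minimum total 15) and tested with edgeR 4.0.16 (glmQLFit and glmQLFTest, TMM) in R 4.3.3 with all 9 libraries in 1 fit and Benjamini-Hochberg adjustment over 17910 genes. Each SE was derived from the quasi-likelihood F. CPM uses TMM-scaled totals. SDs are over 3 replicates. A floor of 3 counts allows for counting error only, as PCR copies were not marked. TPM, deposited by the authors, was used for levels between genes and with limma 3.58.1 on log2(TPM + 1) and log2(TPM + 0.1). Fold changes on that scale understate changes of low genes. The deposited transcript counts were tested where a transcript had a mean of at least 10 counts and 5% of its gene in a line, with 0.5 added, Simes p per gene and adjustment over 10065 genes. DESeq2 1.42.0, size factors, no filter, a replicate block, only the lines compared and leaving out each library were alternatives.

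Members and lists were chosen with earlier results of these data known. Named genes were the 10 members, the largest called rise and fall of each list in each comparison (of which the text gives a selection), and 12 partners; ERN1, GADD45A, HSPA5, XBP1, MARS1 and the printed sites, outside this rule, were chosen after their values were seen. Near-identical pseudogene copies of members, 16 in the table, had at most 11.3 counts in a library. Matching numbers do not pair the libraries. In simulated data with 200 genes changed 3-fold in MCF10AT1 against MCF10A, edgeR recovered 90.5% of them among 17420 genes, with 11 false calls. Apart from these 200, all lines shared the same means, while 61.6% to 80.9% of genes were called in the real data. The run therefore does not test scaling or false calls where most genes differ.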

Additional observations from a re-analysis of the deposited data

How the results depend on the processing

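Of 570 log2 fold changes of members under alternatives, 552 stayed on their side of the threshold and, where called by counts, kept their direction. Of the fold changes called by counts, the 3 that turned were PSPH in MCF10AT1 against MCF10A under limma, at -0.000175 on log2(TPM + 1) with and without the filter and -0.000209 on log2(TPM + 0.1). The other 15 were 12 calls lost (PSPH and PHGDH in MCF10AT1 against MCF10A, ATF4 in MCF10Ca1a against MCF10A on TPM) and 3 gained (SHMT2 in MCF10Ca1a against MCF10AT1 on TPM). Among the 552, 11 of those not called by counts changed sign without a call: SHMT2 in MCF10Ca1a against MCF10AT1 (down to -0.05) and against MCF10A (up to 0.13), and SLC7A5 in MCF10Ca1a against MCF10AT1 (up to 0.24). In MCF10AT1 against MCF10A, glutamine, proline and aspartate enzymes had 14 calls by counts and 9, 9 and 8 under the 3 TPM fits, tRNA synthetases 13 and then 7, and the glutathione list 5 and then 3, on log2(TPM + 1) without a filter. Stress transcription factors had 5 to 8 calls there when a library was left out, with 8 without MCF10A replicate 1. TPM moved the median change of all genes from 0.00 to -0.07, -0.04 to 0.13 and -0.05 to 0.06 in the 3 comparisons; the cause was not tested. Members with transcript calls, 1, 5 and 5, ranged over 0 to 2, 2 to 4 and 2 to 5 when a library was left out.

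The replicate numbers do not pair the libraries: 0 of 9 same-number pairs had a correlation over 0.1, from -0.06 to 0.05. With the replicate block the members called stayed at 9, 8 and 9 and transcript calls were 0, 3 and 3, with the PSAT1 call in MCF10AT1 against MCF10A lost (adjusted p 0.0548, limma). The lower depth of MCF10Ca1a and the low counts of CHAC1 in MCF10A limit precision.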
